A study of Arabidopsis thaliana with 82 samples.

Results

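When an Arabidopsis hypocotyl is cut across, the piece above the cut either stays alone or can be joined to a lower piece from another plant. The tissue above the cut was compared between these outcomes at 48 and 72 h: 4 libraries of grafted tops against 4 of separated tops, which are 8 of the 82 poly(A) RNA libraries of the series, chosen by their labelled condition and time. All plants were Arabidopsis thaliana Col-0, 7 days old, raised on agar without sucrose at 20 °C with 8 h of light a day, and all of them, the uncut intact plants included, had lost 1 cotyledon. Grafted tops are hypocotyl tissue from above the junction after a cut lower and upper piece of different plants had been aligned and joined, and separated tops are the same tissue left apart after the same cut. Each condition and time has 2 libraries, which the labels call independent biological replicates. Each difference was taken within a time and the 48 and 72 h differences were averaged. Intact hypocotyls and the tissue below the cut at the same times are given where they show where the tops stand.

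Auxin made in the shoot moves down the hypocotyl and builds up above a cut, where it can start adventitious roots, and auxin-responsive genes such as those of the GH3 family (enzymes that couple auxin to amino acids) rise with it. Joining restores the path through new vascular tissue: phloem, which carries sugar and auxin away from the shoot, and xylem, which carries water, minerals and root-made cytokinin upward. A top without roots depends on roots of its own for these.

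All values below are normalised values, the authors' library-normalised values multiplied by 1 constant so that the median library sums to 1000000. Differences are grafted minus separated on the scale log2(normalised value + 1) with their standard error, and folds come from that scale, so they understate changes of weakly expressed genes. A gene was called when limma's test over all 82 libraries gave a Benjamini-Hochberg adjusted p under 0.05 over the 20766 genes tested. The 8 libraries had column sums of 10.1 to 11.1 M in the authors' units. From the steps between low values, 7 of them were estimated at 7.73 to 17.7 M reads, with both grafted libraries at 72 h the shallowest, at 7.73 and 8.48 M, and no estimate for separated top replicate 1 at 72 h. Replicates correlated at 0.977 to 0.992. Separated top replicate 2 at 72 h stood apart: its chloroplast-encoded transcripts summed to 203 and its mitochondrial ones to 113, against 47.5 to 166 and 31.1 to 48.3 in the other 7 libraries. Results that lean on it are given without it as well. In such bulk samples, fewer cells of a type and less RNA per cell cannot be told apart.

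Across all genes, grafted and separated tops differed in 4684 genes, 22.6% of those tested, with 1722 higher (8.29%) and 2962 lower (14.3%) in grafted tops. At least 2-fold differences were found for 375 genes higher and 381 lower. The median of all genes was -0.05, and the balance of directions depended on scaling: with median-of-ratios scaling 2523 genes were higher and 1993 lower, and with quantile normalisation 2407 were higher and 2850 lower. The number of genes called grew steeply between the days, which is not itself a test of a change in the difference. At 48 h 250 genes were called (1.20%), 51 higher (0.246%) and 199 lower (0.958%). The 51 were 10 without grafted top replicate 2 or separated top replicate 1 of 48 h and 16 without separated top replicate 2, when 88, 80 and 148 genes were lower. At 72 h 4790 were called (23.1%), 1757 higher (8.46%) and 3033 lower (14.6%). With median-of-ratios scaling these were 74 higher and 162 lower at 48 h, and 2543 higher and 1968 lower at 72 h. Of the genes called at each time 211 were shared, all 211 with the same sign. The difference itself changed between the times for 432 genes (2.08%), 57 upward (0.274%) and 375 downward (1.81%), most of them weakly expressed (304 with a mean value under 5). The upward count was 224 without separated top replicate 1 of 72 h, 155 without grafted top replicate 2 of 72 h, 28 without separated top replicate 2 of 72 h, 33 without grafted top replicate 1 of 48 h and 21 without separated top replicate 1 of 48 h, and the downward count stayed at 281 to 429. A fit of only these groups, which estimates the spread from them alone, called 4117 genes for the mean but 0 at either single time by limma, where 3587 genes at 48 h and 5776 at 72 h had an unadjusted p under 0.05. The calls at single times therefore rest on the spread shared by all 82 libraries.

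**Figure D1:**
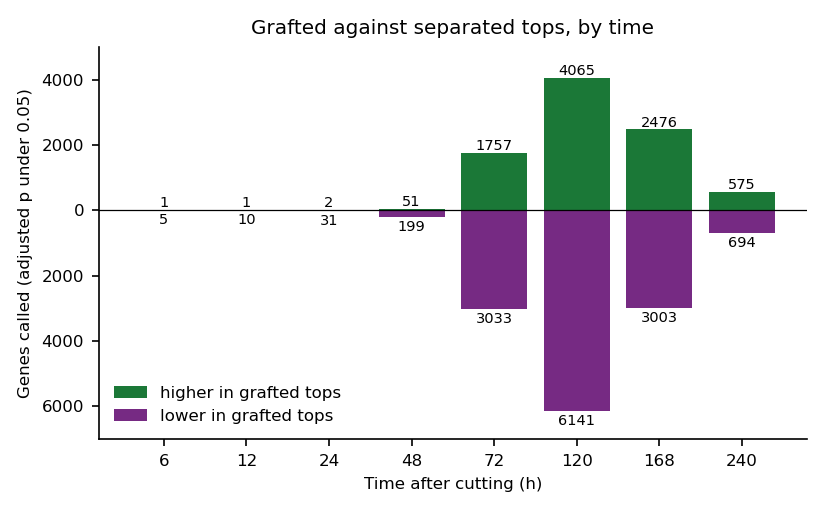
Number of genes called (adjusted p under 0.05) higher (green, up) or lower (purple, down) in grafted than in separated tops at each time after cutting. Calls went from 250 at 48 h to 4790 at 72 h and reached 10206 at 120 h (49.1%).

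Several genes that respond to auxin were lower above a joined cut. Of 20 auxin response genes tested, 6 fell (14.3% of all genes) and 0 rose in grafted tops, with a list median of -0.24. The median was -0.11 without separated top replicate 2 of 48 h, -0.12 without grafted top replicate 1 of 72 h and -0.15 without separated top replicate 2 of 72 h. The 6 are GH3.1, GH3.2 and GH3.3, and IAA14, IAA19 and IAA29, which encode Aux/IAA repressors. Taken by time, 3 of the 20 were called lower at 48 h (0.958% of all genes). At 72 h 3 were as well, all of them GH3 genes, and this was close to the 14.6% of all genes lower then. GH3.1 (AT2G14960, chromosome 2, 6451319 to 6453797, TAIR10.1) had 1.13 and 1.46 in grafted tops at 48 h and 4.29 and 5.02 at 72 h. In separated tops it had 27.4 and 25.2 at 48 h and 21.8 and 32.6 at 72 h. The groups did not overlap at either time, as was so for 27.3% of all genes tested. Intact hypocotyls had 0 in every library at these times. The difference was -2.93 ± 0.18 (SE, 4 libraries a side, 7.64-fold, adjusted p = 1.6e-17). GH3.2 fell by 1.62 ± 0.29 (adjusted p = 2.8e-05) and GH3.3 by 1.41 ± 0.33 (adjusted p = 0.00096). IAA19 had 15.0 and 11.2 in grafted tops against 32.4 and 32.4 in separated tops at 48 h, and 13.9 and 18.5 against 20.5 and 25.9 at 72 h. Its values were thus lower in grafted tops at each time, by 0.88 ± 0.20 on average (adjusted p = 0.00093), but at 72 h alone 0 of the IAA genes were called. Other members did not follow: GH3.6 had a difference of 0.17 ± 0.19, IAA5 of -0.04 ± 0.15 (adjusted p = 0.91) and HAT2, a homeodomain-leucine zipper gene, of 0.39 ± 0.24. The efflux carrier PIN3 had 0.03 ± 0.19 (adjusted p = 0.94). Among 15 auxin transport genes PIN6 rose, by 0.73 ± 0.15, and ABCB4 fell, by 0.58 ± 0.15 (8.29% and 14.3% of all genes).

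The promoters of the 2 auxin response genes with the largest decreases are shown because this family is known for auxin response elements. They are the 250 bases before the annotated gene start in the RefSeq TAIR10.1 reference, 5′ to 3′ on the gene's strand, with each TGTCTC (the auxin response element bound by ARF factors, searched on both strands) in capitals. GH3.2 lies on the plus strand at chr4:17579368-17579617 and GH3.1 on the minus strand at chr2:6453798-6454047.
GH3.2: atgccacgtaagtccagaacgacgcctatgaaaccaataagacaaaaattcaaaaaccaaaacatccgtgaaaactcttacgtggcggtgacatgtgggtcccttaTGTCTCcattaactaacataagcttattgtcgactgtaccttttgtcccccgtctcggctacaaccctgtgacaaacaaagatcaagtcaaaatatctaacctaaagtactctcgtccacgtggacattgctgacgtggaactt
GH3.1: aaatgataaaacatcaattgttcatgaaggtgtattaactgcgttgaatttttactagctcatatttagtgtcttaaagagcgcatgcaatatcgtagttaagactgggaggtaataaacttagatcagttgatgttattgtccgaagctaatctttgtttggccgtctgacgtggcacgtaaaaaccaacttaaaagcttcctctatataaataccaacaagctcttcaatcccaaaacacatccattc
GH3.2 holds 1 such element and GH3.1 none in this window. TGTCTC was found in 9 of the 20 auxin response promoters (45.0%) and in 10.6% of the 20560 promoters of tested genes. It was in 11.1% of promoters of genes called higher and 10.7% of those called lower in grafted tops. A match is a description and not a site of binding.

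Several genes of root initiation were lower in grafted tops. Of 18 tested, 9 fell (14.3% of all genes) and 0 rose, with a median of -0.43 (-0.05 over all genes). At 48 h 7 of the list were already called, when 0.958% of all genes were called lower. The founders of lateral and adventitious roots are marked by LBD16, LBD17, LBD18, LBD33, PUCHI and GATA23, all transcription factors, and all 6 fell, as did MAKR4, LRP1 and WOX7. PUCHI (AT5G18560), an AP2-type factor of the early root primordium, had 0.728 and 0.0809 in grafted tops at 48 h and 2.67 and 6.23 at 72 h. Separated tops had 9.55 and 9.23 at 48 h and 34.6 and 34.1 at 72 h, far above the grafted ones at both times. The difference was -2.85 ± 0.12 (adjusted p = 9.6e-24). LBD16, which starts lateral root founder divisions, had 53.0 and 47.4 against 114 and 98.5 at 48 h, and 57.5 and 73.2 against 99.7 and 127 at 72 h. Grafted tops therefore still had LBD16 far above intact hypocotyls, whose mean was 1.27, and the difference between the tops was -0.93 ± 0.18 (adjusted p = 1e-04). Not all root-inducing factors differed: WOX11, which acts in the first step of adventitious rooting, had -0.07 ± 0.19, and the auxin response factors ARF6, ARF7, ARF8 and ARF19 lay between -0.13 and 0.19, none of them called. Many of these genes are weakly expressed: with a mean value of at least 5 required, 11 of the list were tested and 3 fell.

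Some markers of an organised root tip were lower in grafted tops as well, with more of them called at 72 h than at 48 h. Of 15 root meristem and cap genes tested, 8 fell and 0 rose for the mean, 2 of them called at 48 h and 8 at 72 h. Over all genes 14.3% fell for the mean, 0.958% at 48 h and 14.6% at 72 h. WOX5, expressed in the quiescent centre, was listed at 0 in both grafted libraries and at 1.29 and 0.809 in the separated ones at 48 h. At 72 h it had 1.86 and 2.02 against 10.5 and 14.8. The gap widened between the times (72 h minus 48 h -1.17, adjusted p = 0.0052). PLT1 had 0.0809 and 0.728 in grafted tops and 5.34 and 7.12 in separated tops at 72 h, and the root cap factor SMB fell by 2.19 ± 0.20 (adjusted p = 7.7e-12). The stem cell factors SHR and SCR, which also act in hypocotyl endodermis, did not pass, with -0.09 ± 0.21 and -0.10 ± 0.16. Summed over all 18 members, the list reached 157 to 209 in grafted tops, 170 to 291 in separated tops and 186 to 249 in intact plants. In grafted tops at 48 h, 10 of the 18 were listed at 0, among them PLT1, PLT2, BBM and WOX5. With quantile normalisation 5 of the list fell, and of the 4 with a mean value of at least 5 none was called. The part of new root tissue in the other results was not tested.

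Root hair genes were among the largest decreases. A list of root endodermis and hair genes split by what its members mark, a split made after the values were seen: all 6 hair genes (RHD6, RSL4, LRX1, COBL9, EXPA7, PRP3) fell, while none of the 8 endodermal ones (CASP1 to CASP5, MYB36, PER64, ESB1) was called for the mean, with differences of 0.37 to 0.56. At 72 h all 8 lay at 0.44 to 1.09 (median 0.72), and CASP5 (1.09 ± 0.37, adjusted p = 0.025) and ESB1 (0.91 ± 0.33, adjusted p = 0.037) rose. The list as a whole had 6 genes down and 1 up of 16 (14.3% and 8.29% of all genes). The 1 up was the beta-glucosidase BGLU23, and with a pseudocount of 5 the list had 6 down and 5 up. Of its 9 genes with a mean value of at least 5, 1 fell and 1 rose. LRX1, a leucine-rich repeat extensin of root hair walls, had 0.162 and 0 in grafted tops at 48 h and 6.88 and 6.55 at 72 h. Separated tops had 3.72 and 4.69 and then 91.9 and 89.6, a difference of -2.92 ± 0.14 (adjusted p = 1.8e-21). The gap in LRX1 widened from 48 to 72 h (-1.31, adjusted p = 0.0029). RHD6, the bHLH factor that starts hair growth, went the other way: it differed by -3.81 ± 0.30 at 48 h and -2.13 ± 0.30 at 72 h, a change of 1.68 (adjusted p = 0.018). In grafted tops RHD6 had 2.83 and 0 at 48 h and 9.79 and 13.4 at 72 h, against 32.1 and 21.8 and then 57.1 and 50.3 in separated tops. The sum of the 6 hair genes was 31.5 and 30.3 in grafted tops at 72 h, close to the 38.6 and 28.0 of separated tops at 48 h. Separated tops reached 328 and 280 at 72 h, and intact plants had at most 0.243.

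Of the 10 largest decreases among called genes with a mean normalised value of at least 5, RHD6, LRX1, GH3.1 and PUCHI are given above and the others follow. EXT10, EXT6 and HRGP1 encode extensins, cell wall glycoproteins, and fell by 3.31 ± 0.23, 2.46 ± 0.24 and 3.21 ± 0.32. Extensins have near-identical copies, so reads may be split among them and each value is uncertain. BGLU21, a beta-glucosidase, had 0.162 and 0 in grafted tops against 35.0 and 17.4 at 48 h, and 12.3 and 16.7 against 129 and 115 at 72 h. Its difference of -3.79 ± 0.27 was the largest decrease among the named genes (adjusted p = 2.5e-15). ZIP2, a metal transporter, and GASA6, a gibberellin-regulated peptide gene, fell by 2.46 ± 0.16 and 2.44 ± 0.35. Between 48 and 72 h the gap widened most in XTH14, a xyloglucan transglycosylase, RHS13, a root hair protein gene, and EXT13. All 3 were at or near 0 in every top at 48 h. At 72 h XTH14 had 3.64 and 2.67 in grafted and 67.8 and 70.3 in separated tops, RHS13 0.890 and 0.647 against 24.4 and 35.4, and EXT13 1.54 and 0.566 against 37.0 and 26.5.

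**Figure D2:**
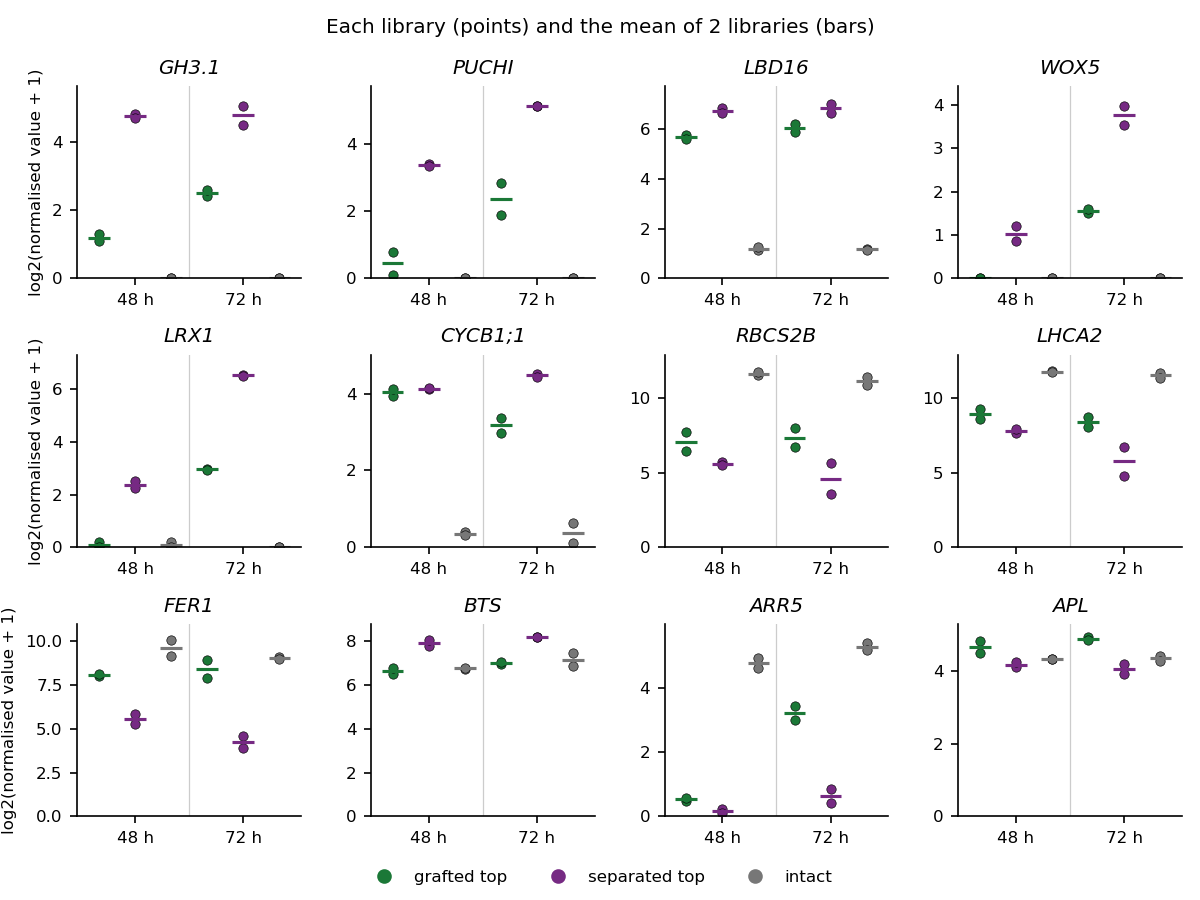
log2(normalised value + 1) of 12 genes in each library (points) with the mean of 2 libraries (bars) for grafted tops, separated tops and intact hypocotyls at 48 and 72 h. Auxin, root and hair genes (GH3.1, PUCHI, LBD16, WOX5, LRX1) lie below in grafted tops at both times, and RBCS2B, LHCA2 and FER1 lie above, between separated tops and intact plants.

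Cell division genes were lower in grafted tops at 72 h, and none of the list was called at 48 h. Of 30 cell cycle genes, 9 fell (14.3% of all genes) and 0 rose for the mean (list median -0.47). At 48 h 0 were called by limma (median -0.08, with 0 at an unadjusted p under 0.05). At 72 h 18 were called lower (median -0.83, against 14.6% of all genes lower). The change between the times was itself called for 1 of the 30, downward (1.81% of all genes), with a median of -0.70. CYCB1;1, a mitotic cyclin, had 14.2 and 16.5 in grafted and 16.3 and 16.8 in separated tops at 48 h. At 72 h it had 6.88 and 9.31 against 21.6 and 20.7, a difference of -1.30 ± 0.25 (adjusted p = 8.6e-05). Genes of DNA replication fell as well, among them MCM2 (by 0.67 ± 0.19), PCNA1 (by 0.71 ± 0.23) and the ribonucleotide reductase TSO2 (by 0.68 ± 0.17). Both tops stayed above intact plants, in which CYCB1;1 had a mean of 0.304. The count for the mean was 4 when grafted top replicate 1 or separated top replicate 2 of 48 h, or separated top replicate 1 of 72 h, was left out, 5 without grafted top replicate 2 of 72 h, and 5 with median-of-ratios scaling, but 17 with a pseudocount of 5 and 19 in the fit of only these groups.

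Photosynthesis genes were higher in grafted tops. Of 32 nuclear genes for the photosystems, Rubisco and chlorophyll synthesis, 31 rose and 0 fell (8.29% of all genes rose), with a median of 1.53. The median was 0.97 at 48 h, when 1 was called by limma and 30 had an unadjusted p under 0.05. At 72 h it was 2.12 and 31 were called. The change between the times was called for 0 of the 32. The 1 gene not called for the mean also had a positive difference, as the lowest of the 32 was 0.75. RBCS2B, a Rubisco small subunit (AT5G38420, chromosome 5, 15380907 to 15382071), had 86.0 and 211 in grafted and 51.4 and 44.7 in separated tops at 48 h. At 72 h it had 252 and 103 against 48.9 and 10.8, and the mean difference was 2.11 ± 0.34 (adjusted p = 4e-06). LHCA2, a light-harvesting protein of photosystem I, had 386 and 624 against 200 and 242 at 48 h, and 428 and 264 against 104 and 26.9 at 72 h. It rose by 1.90 ± 0.24 (adjusted p = 4.3e-08). RCA, which activates Rubisco, rose by 1.54 ± 0.22, PSAL of photosystem I by 1.69 ± 0.20 and HEMA1, the first committed enzyme of chlorophyll synthesis, by 1.52 ± 0.19. Light-harvesting and Rubisco genes have near-identical copies, and single members are uncertain for that reason.

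These genes were far below intact plants in both tops. Summed over the list, grafted tops had 14870.4 and 21197.5 at 48 h and 17984 and 11017 at 72 h. Separated tops had 8946 and 9065, then 5383 and 1771, and intact plants 103157 to 143445. Separated tops at 72 h thus lay below those at 48 h, with replicate 2 the lowest. The median of the list was -2.92 for grafted tops and -4.42 for separated tops relative to intact plants, comparisons that share the intact libraries. Without separated top replicate 2 of 72 h, 30 of the 32 were called and the median was 1.14. With replicate 1 alone on both sides at 72 h, an alternative chosen after the values were seen, 31 were called with a median of 1.35. The fit of only these groups called 17. Genes with the largest increases also included the iron genes FER1 and NAS1, given below. The others were closer in kind to this list: PTAC16, a protein of the plastid's transcription complex (2.13 ± 0.28), LHCB2.2 (2.12 ± 0.32), RBCS1B (2.02 ± 0.28), LHCB1.3 (2.0 ± 0.31), PSAD-2 (1.93 ± 0.27) and CAB3 (1.92 ± 0.29).

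The promoter of RBCS2B is shown because light-regulated photosynthesis promoters are known for the I-box, GATAAG, here searched on both strands and in capitals. The window is the 250 bases before the gene start, on the minus strand at chr5:15382072-15382321 (RefSeq, TAIR10.1).
RBCS2B: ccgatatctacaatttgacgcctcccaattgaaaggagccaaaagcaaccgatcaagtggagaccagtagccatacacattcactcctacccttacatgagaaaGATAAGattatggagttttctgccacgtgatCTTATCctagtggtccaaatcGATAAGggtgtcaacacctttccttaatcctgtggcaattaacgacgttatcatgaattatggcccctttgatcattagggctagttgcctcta
It holds 3 I-boxes, while 7 of the 32 photosynthesis promoters (21.9%) hold at least 1, against 12.3% of all 20560. The shares were 15.7% among genes called higher and 10.1% among genes called lower in grafted tops. The G-box CACGTG was in 6 of the 32 (18.8%) and in 7.33% of all.

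Iron genes were called in both directions. Of 23 tested, 4 rose and 11 fell in grafted tops (8.29% and 14.3% of all genes). At 48 h 3 of the 23 were called higher and 4 lower (0.246% and 0.958% of all genes). FER1 (AT5G01600), the main ferritin of leaves, which stores iron in plastids, had 255 and 270.0 in grafted and 38.0 and 55.9 in separated tops at 48 h. At 72 h it had 471 and 230.2 against 23.1 and 14.1. The gap was 3.3 ± 0.28 (9.85-fold, adjusted p = 2.4e-13), the largest increase among the named genes, and intact plants had 503 to 1043. FER4, another ferritin, rose by 1.15 ± 0.19, YSL1, a transporter of iron bound to nicotianamine, by 1.77 ± 0.26, and NAS1, which makes nicotianamine, by 2.2 ± 0.35. NAS1 had 29.5 and 30.0 against 8.66 and 4.69 at 48 h, and 84.0 and 117 against 17.6 and 19.6 at 72 h.

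Among the 11 that fell was BTS. This E3 ligase, which holds the response to low iron in check and is itself induced by low iron, had 89.7 and 107 in grafted and 215 and 264 in separated tops at 48 h. At 72 h it had 121 and 131 against 287 and 290.2, a difference of -1.23 ± 0.14 (adjusted p = 4.4e-09). Intact plants had 105 to 172, close to grafted tops. The 4 bHLH factors of subgroup Ib all fell: bHLH38 by 2.2 ± 0.38, bHLH39 by 2.01 ± 0.37, bHLH100 by 1.29 ± 0.34 and bHLH101 by 1.14 ± 0.32. So did the regulator PYE (by 0.88 ± 0.19), the phloem iron transporter OPT3 (by 1.03 ± 0.23), the reductase FRO3 (by 0.87 ± 0.14) and YSL3 (by 1.32 ± 0.19), as well as NAS4 and F6′H1. YSL3 and NAS4 are relatives of YSL1 and NAS1, which rose. The 4 bHLH genes summed to 7.93 and 9.39 in grafted and 32.4 and 48.7 in separated tops at 48 h. At 72 h the sums were 20.0 and 20.7 against 68.6 and 72.6, and intact plants had 0.324 to 3.56. Unlike BTS, their sum in grafted tops thus lay above that of intact plants. By limma 1 of the 4 was called lower at 48 h and 3 at 72 h (0.958% and 14.6% of all genes). Of the root uptake genes, IRT1 was listed at 0 in all 8 libraries and FRO2 and FIT reached at most 0.324. NAS3 had a difference of 0.59 ± 0.26 (adjusted p = 0.10).

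**Figure D3:**
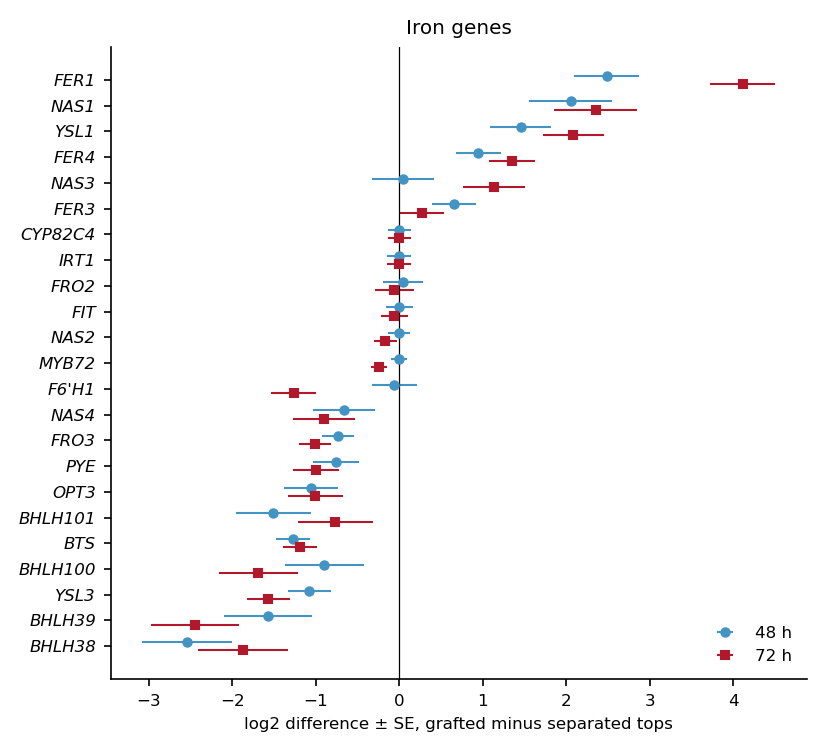
log2 difference ± SE, grafted minus separated tops, at 48 h (blue circles, 2 libraries a side) and 72 h (red squares, 2 libraries a side) for the 23 iron genes tested. FER1, NAS1, YSL1 and FER4 lie to the right of 0 at both times and the bHLH Ib factors, YSL3 and BTS to the left.

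A few phosphate and sulphate starvation genes were lower in grafted tops, in shares not far above that of all genes. PHT1;1, a phosphate transporter, had 3.80 and 5.83 in grafted and 59.8 and 54.4 in separated tops at 72 h (mean of both times -2.11 ± 0.37, adjusted p = 2.3e-05). The phosphate starvation list had 3 of 16 genes down, which are PHT1;1 and the non-coding RNAs IPS1 and AT4, and 0 up, where 14.3% of all genes fell. Of 11 sulphate genes 2 fell (14.3% of all genes), the root sulphate transporters SULTR1;1 and SULTR1;2, and the list median was -0.48. The sulphate list rested on single libraries: without grafted top replicate 1 of 48 h 5 fell (median -0.79), without replicate 2 of it 1 fell (median 0.01), and 1 fell without separated top replicate 1 of 48 h (median -0.23), grafted top replicate 2 of 72 h or separated top replicate 1 of 72 h. Of 20 nitrogen genes 3 rose and 2 fell (8.29% and 14.3% of all genes). NIR1, nitrite reductase, rose by 0.73 ± 0.16 and the plastid glutamine synthetase GLN2 by 0.70 ± 0.15, while GLN1;4 fell by 0.93 ± 0.20. Without grafted top replicate 1 or 2 or separated top replicate 1 or 2 of 48 h, or separated top replicate 1 of 72 h, 2 nitrogen genes rose and 1 fell. The nitrate reductase NIA1 did not pass, at -0.41 ± 0.26 (adjusted p = 0.29).

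Some cytokinin response genes rose at 72 h. Of 16 tested, 5 rose and 1 fell for the mean (8.29% and 14.3% of all genes), with 0 called at 48 h by limma (3 at an unadjusted p under 0.05) and 5 up at 72 h (8.46% of all genes). For the mean 3 rose without grafted or separated top replicate 2 of 48 h, grafted top replicate 2 of 72 h or separated top replicate 1 of 72 h. ARR5, a type-A response regulator induced by cytokinin, had 0.405 and 0.486 in grafted and 0.162 and 0.0809 in separated tops at 48 h. At 72 h it had 7.04 and 9.71 against 0.809 and 0.324, and the difference itself changed between the times (2.22 ± 0.51, adjusted p = 0.0060). ARR4 had 16.9 and 19.1 against 3.32 and 5.26 at 72 h and changed likewise (1.40, adjusted p = 0.0063). ARR6 and ARR7 also rose, by 0.72 ± 0.25 and 0.91 ± 0.27, as did CRF6. All tops stayed below intact plants, where ARR5 had a mean of 32.2 and ARR4 of 51.1. CRF2, a cytokinin response factor, fell by 1.63 ± 0.28 (adjusted p = 1.9e-05).

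Phloem genes were higher in grafted tops. Of 25 tested 13 rose (8.29% of all genes) and 0 fell, with a median of 0.43, and 0 were called at 48 h by limma (median 0.25, with 3 at an unadjusted p under 0.05). APL, the factor that sets phloem identity, had 21.7 and 27.6 in grafted and 16.2 and 17.9 in separated tops at 48 h, and 29.9 and 27.8 against 14.2 and 17.2 at 72 h. It rose by 0.67 ± 0.12 (adjusted p = 2.3e-05). The sieve element genes SEOR1, SEOR2, NAC045, NAC086 and NEN4 rose by 0.77 to 0.94. The companion cell genes SUC2, a sucrose transporter, and PP2-A1, a phloem lectin, rose by 1.41 ± 0.32 and 1.31 ± 0.24. SUC2 was uneven at 72 h, with 89.8 and 15.9 in grafted and 16.9 and 1.70 in separated tops. The list count moved with single libraries: 5 without separated top replicate 1 of 48 h, 7 without grafted top replicate 2 of 48 h or replicate 1 of 72 h, and 6 up and 1 down without separated top replicate 2 of 72 h. Its median stayed between 0.40 and 0.48.

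Few cambium and xylem genes were called. Of 28 cambium genes 3 rose and 1 fell, where 8.29% of all genes rose and 14.3% fell. LBD4 rose by 0.96 ± 0.20, CLE42 by 0.58 ± 0.17 and HB8 rose too, and the peptide gene CLE44 fell by 0.62 ± 0.19. The receptor gene PXY had 194 and 203 against 157 and 176 at 48 h and 261 and 209 against 168 and 125 at 72 h, a difference of 0.47 ± 0.20 that was not called (adjusted p = 0.093). With median-of-ratios scaling it was 0.58 and was called. WOX4 had 0.36 ± 0.20 (adjusted p = 0.20). On the cambium list 7 genes rose with median-of-ratios scaling and 6 with quantile normalisation, and 2 rose and 0 fell without grafted top replicate 2 or separated top replicate 1 of 48 h, or without grafted top replicate 1 of 72 h. Of 33 xylem and secondary wall genes 2 rose (8.29% of all genes) and 0 fell. They were VND7, a master factor of vessel formation, by 0.94 ± 0.17 (adjusted p = 4.8e-05) and VND2 by 0.60 ± 0.20. On this list 1 gene rose without grafted top replicate 1 or separated top replicate 2 of 48 h, or without grafted top replicate 1 or 2 or separated top replicate 1 of 72 h. The wall enzymes on that list were not called.

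**Figure D4:**
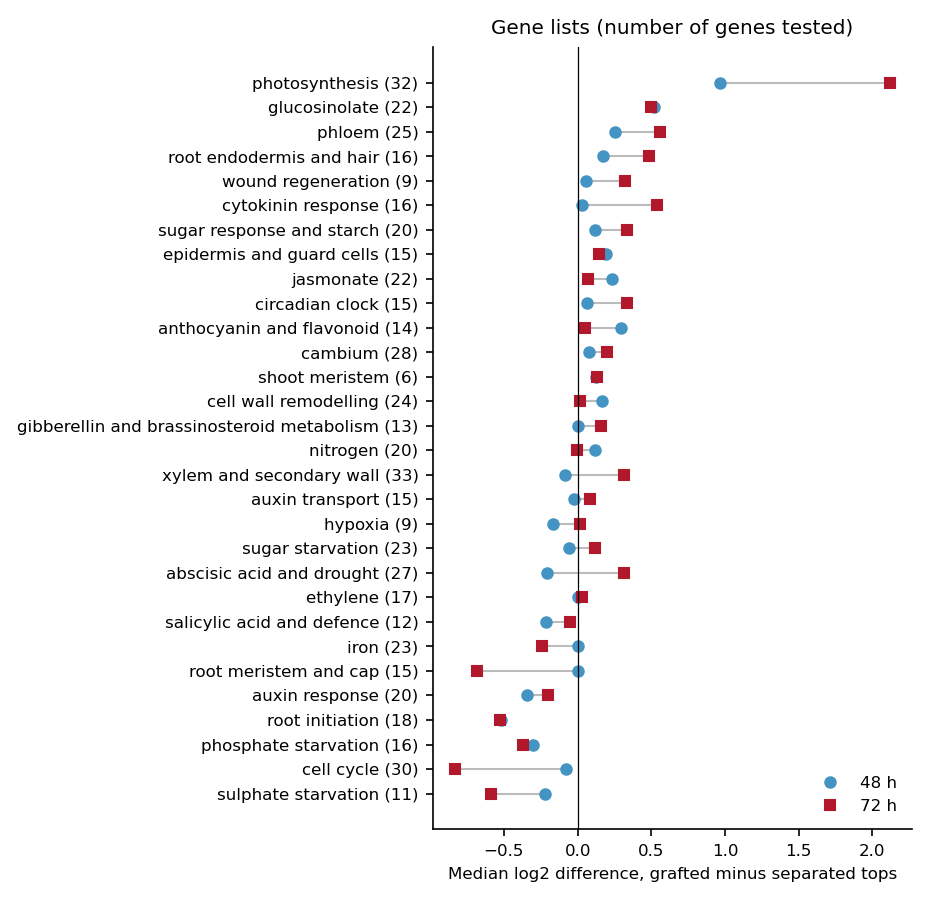
Median log2 difference, grafted minus separated tops, of each gene list at 48 h (blue circles) and 72 h (red squares), with the number of genes tested in brackets. Photosynthesis goes from 0.97 to 2.12, and cell cycle from -0.08 to -0.83.

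Few genes of several responses to cutting were called between the tops. Of 22 jasmonate, 12 salicylic acid, 9 hypoxia and 15 circadian clock genes, 0 were called by limma for the mean, with 4, 3, 0 and 1 of them at an unadjusted p under 0.05. These zeros moved with the fit: with median-of-ratios scaling 2 jasmonate, 1 salicylic acid and 1 clock gene were higher, in the fit of only these groups 3 jasmonate and 1 salicylic acid gene were, and without 1 library at most 1 gene of a list was called. The wound factors ANAC071 and ERF115, at 0 to 0.486 in intact plants, had 27.1 to 49.8 and 47.6 to 72.5 in grafted tops and 22.1 to 45.5 and 23.4 to 71.6 in separated tops. Their differences were 0.28 ± 0.19 and 0.41 ± 0.22 (adjusted p = 0.33 and 0.19). On the wound regeneration list ANAC096 rose by 0.87 ± 0.25 and the xyloglucan gene XTH19 fell by 1.32 ± 0.43. Abscisic acid and drought genes gave 1 up (ABF4) and 1 down (HB7) of 27, and NCED3 and RAB18 differed by 0.29 ± 0.30 and -0.30 ± 0.39. Ethylene genes gave 3 down of 17, the synthesis genes ACS8, ACS11 and ACO1. Of 13 gibberellin and brassinosteroid genes the brassinosteroid enzyme gene CPD rose, and of 24 cell wall genes the expansin EXPA8 rose and the polygalacturonase ADPG2 fell. These counts lay near or below the shares of all genes, of which 8.29% rose and 14.3% fell. Such small counts moved with single libraries. The ethylene count was 1 without grafted top replicate 2 of 48 h, or without grafted top replicate 1 or separated top replicate 2 of 72 h, and the abscisic acid count was 0 to 2 up and 0 to 4 down with 1 library left out.

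Few sugar genes were called. Of 23 sugar starvation genes only DIN2 was called, where 8.29% of all genes rose and 14.3% fell. DIN2 was lower by 1.97 ± 0.50 (adjusted p = 0.0028), and the dark-induced asparagine synthetase ASN1 had -0.11 ± 0.51. Of 20 sugar response and starch genes 3 rose and 0 fell (8.29% and 14.3% of all genes): APL1, a large subunit of ADP-glucose pyrophosphorylase, by 1.15 ± 0.15 and the synthases SS1 and SS2 by 0.32 ± 0.11 and 0.31 ± 0.10. That count was 1 without grafted or separated top replicate 2 of 48 h, grafted top replicate 1 of 72 h or separated top replicate 2 of 72 h. Of 14 anthocyanin and flavonoid genes MYB12 fell (14.3% of all genes), and DFR, with 27.4 to 170.0 across separated and 50.6 to 123 across grafted tops, did not pass. No gene of this list was called with a pseudocount of 0.5 or 5, median-of-ratios scaling, quantile normalisation or the fit of only these groups. The same held without grafted top replicate 2 or separated top replicate 1 or 2 of 48 h, or without grafted top replicate 1 of 72 h. GPT2, a sugar-induced plastid transporter, had 0.38 ± 0.62. Of 22 glucosinolate genes 8 rose and 0 fell (8.29% and 14.3% of all genes), with a median of 0.47. Among the 8 were the indole-pathway enzymes CYP79B2 and CYP79B3 (1.20 ± 0.30 and 1.31 ± 0.34) and MAM3 of the aliphatic pathway (1.24 ± 0.23). In intact plants these were unequal between replicates, CYP79B3 running from 106 to 565. The list had 4 up without replicate 2 of grafted or separated tops at 48 h or of grafted tops at 72 h, 5 without separated top replicate 1 of 72 h and 3 in the fit of only these groups.

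Markers of tissue other than hypocotyl vasculature and cortex were checked for what a sample could hold besides. The shoot meristem list summed to 262 to 316 in grafted and 234 to 271 in separated tops, with WUS and CLV3 at 0 in every one of these libraries. CUC3, a boundary gene on it, had 6.15 and 6.15 against 1.78 and 1.86 at 48 h, and 2.18 and 5.18 against 0.971 and 1.38 at 72 h, and rose by 1.19 ± 0.15 (adjusted p = 3.1e-08), while STM had -0.14 ± 0.22. The epidermis and guard cell list summed to 805 to 1309 and 807 to 1256. On it 4 of 15 were up (8.29% of all genes), among them the guard cell kinase HT1. Another 2 were down (14.3% of all genes), PDF1 and CER1. The counts were 2 up and 1 down without grafted top replicate 2 of 72 h, and 2 up without grafted top replicate 2 of 48 h. PDF1 had 1.46 to 2.51 in tops of 48 h apart from 0.971 in separated replicate 1, and 2.02 and 11.8 against 52.1 and 67.0 at 72 h. The part of these tissues in the results was not tested.

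Below the cut, joining went with another pattern. The grafted minus separated difference was compared between tops and bottoms, which use separate libraries, and the 2 differed for 11505 genes (55.4%), 4798 more positive (23.1%) and 6707 more negative (32.3%) in tops. Grafted and separated bottoms themselves differed in 60.5% of genes. Auxin response genes, 6 of 20 lower in grafted tops, were 15 of 20 higher in grafted bottoms, where 30.0% of all genes were higher, and 18 of 20 had a more negative difference in tops. Cell cycle genes were higher in grafted bottoms in 29 of 30 cases, and 29 of 30 had a more negative difference in tops. Photosynthesis genes were lower in grafted bottoms in 31 of 32 cases (30.5% of all genes), and 31 of 32 had a more positive difference in tops. The largest single contrasts were UCC1, CASP1 and LAC3. CASP1 had 123 to 185 in grafted and 84.5 to 139 in separated tops, but means of 151 in grafted and 0.0809 in separated bottoms (tops less bottoms -6.33 ± 0.37, adjusted p = 9.2e-19). FER1 was opposite, higher in grafted tops and lower in grafted bottoms (means 1003 against 3215), with a difference of 5.11 ± 0.39 (adjusted p = 4e-15).

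Few genes differed before 48 h, and the number grew until 120 h and was lower later. Over 6, 12 and 24 h, 72 genes differed between grafted and separated tops (0.347%), and 2532 genes (12.2%) had another difference at 48 and 72 h than before, 862 more positive (4.15%) and 1670 more negative (8.04%). BGLU21, EXT10 and HRGP1 moved most in the negative and FER1, PTAC16 and LHCB2.2 in the positive direction, FER1 by 3.07 and BGLU21 by -3.90. The median of the auxin response list was -0.45, -0.57 and -0.83 at 6, 12 and 24 h, then -0.34 and -0.20 at 48 and 72 h. Later it was -0.0021, 0.51 and -0.03, for 120, 168 and 240 h in turn. After 72 h the photosynthesis median went on to 3.80 at 120 h and came back to 0.53 at 240 h. The cell cycle median was -1.12 at 120 h and 0.22 at 240 h, and the phloem median 0.68 and -0.04. At 240 h 1269 genes were called (6.11%).

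**Figure D5:**
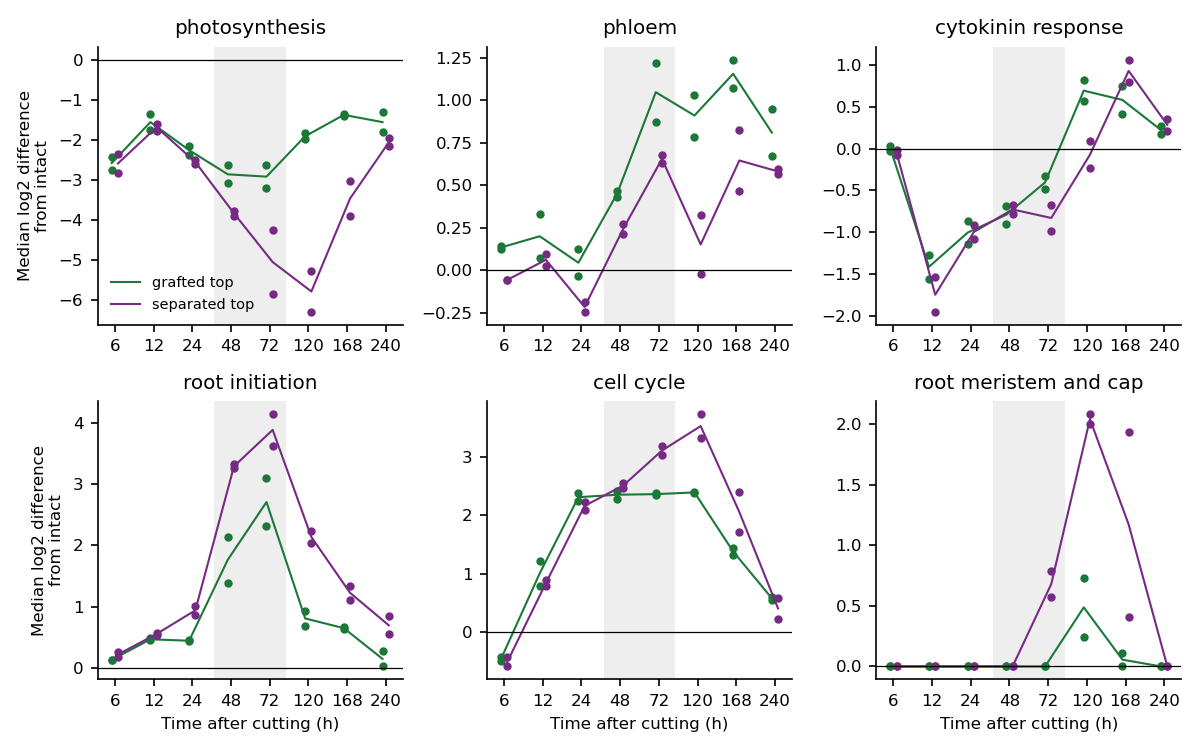
Median log2 difference from intact plants of the same time for 6 gene lists in each library (points) of grafted (green) and separated (purple) tops, with lines through the mean of 2 libraries and 48 to 72 h shaded. The times are evenly spaced for legibility, not to scale, and root initiation and cell cycle lie higher in separated tops and photosynthesis and phloem higher in grafted tops at 72 h.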

How the data were processed

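The 82 libraries (TruSeq Stranded mRNA, 15 PCR cycles per the labels' protocols) were processed with cutadapt 1.8.1 and Bowtie2 against TAIR10, per the submitters' processing notes. For the read counter, annotation release, scaling and use of strand, the sources used here give nothing. The deposited table holds library-normalised values per gene that the authors rounded to whole numbers, treated here as a score and not as counts. They do not give back whole reads, so no count test was run, and an exact 0 may be a rounded value. Reads per library were estimated from the steps between low values.

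Values were multiplied by 0.0809, and genes with at least 1 in at least 2 libraries (20766 of 27416) were tested on log2(value + 1) with limma 3.58.1 (R 4.3.3, trended empirical Bayes) in 1 fit of 41 groups with 41 residual degrees of freedom. P-values were adjusted over all genes tested by Benjamini-Hochberg. They measure the spread between 2 libraries a group. Summaries used Python 3.11.15, NumPy 2.4.6 and pandas 2.3.3, and figures Matplotlib 3.10.9. The code was tested on simulated data. Of the gene IDs 26719 matched the RefSeq TAIR10.1 reference, the source of promoters and coordinates.

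The 30 gene lists (589 genes) and all comparisons were chosen with earlier results of these data known. Named genes are the 10 largest and 10 smallest called differences (mean value of at least 5, same sign at both times, a symbol), the 3 called members of each list with the smallest adjusted p, the 3 largest and 3 smallest in each interaction, and a panel of 25. Some list members outside this rule are named to say which were called, and were chosen after their values were seen. Alternatives were pseudocounts of 0.5 and 5, filters, scalings, the length-normalised table, a fit of only these groups, a replicate block, a robust spread and each library left out. Libraries were mixed over 7 lanes, and the labels do not say which library ran in which lane, so lane effects were not tested.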

Additional observations from a re-analysis of the deposited data

Results flagged for a closer look

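These results are listed because the grafted minus separated difference itself changed between times or between tops and bottoms by limma's test (adjusted p under 0.05), and they are the largest such changes among genes with a symbol and a mean value of at least 5. No explanation was tested.

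Between 48 and 72 h the difference moved by -4.20 for XTH14, by -4.11 for RHS13 and by -4.02 for EXT13, all listed at or near 0 at 48 h in both tops. It moved by 1.68 for RHD6, by 1.89 for OFP4, an ovate family protein gene, and by 1.67 for NdhM, a subunit of the chloroplast NDH complex.

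Between tops and bottoms the difference in tops less that in bottoms was -6.45 for UCC1, -6.33 for CASP1 and -6.04 for LAC3. None of these was called in tops, and all were higher in grafted than separated bottoms. It was 5.11 for FER1, 4.85 for LHCB2.3 and 4.62 for GER1, a germin-like protein gene.

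Against the mean of 6, 12 and 24 h the difference moved by -3.90 for BGLU21, by -3.34 for EXT10 and by -3.25 for HRGP1, and by 3.07 for FER1, by 2.03 for PTAC16 and by 2.02 for LHCB2.2. Extensin and light-harvesting genes have near-identical copies, so those values are uncertain.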

How the results depend on the processing

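The count for the mean of both times was 4684 and moved by less than 1.5 times in every alternative run (3589 to 4364 with 1 library left out). At 48 h the 250 calls became 80 with a mean value of at least 5, 376 with quantile normalisation, 0 in the fit of only these groups and 456 with the replicate block, and 90 to 167 with 1 library left out (90 without separated top replicate 1, 98 without grafted top replicate 2 and 164 without separated top replicate 2). At 72 h the 4790 calls became 0 in the fit of only these groups, 3011 to 3963 with 1 library left out (3011 without grafted top replicate 1, 3104 without separated top replicate 2), and 2492 from replicate 1 alone, an alternative chosen after the data were seen. The 432 genes whose difference changed between the times became 669 with a pseudocount of 5, 18 with a mean value of at least 5 and 181 in the fit of only these groups, and 317 to 595 with 1 library left out. For most such genes the mean was below 5 (304 of 432). Median-of-ratios scaling turned the balance at 72 h to 2543 higher and 1968 lower, and of the changes against earlier times to 1270 and 1117 from 862 and 1670. Quantile normalisation gave 198 higher and 372 lower for the change between times, from 57 and 375, and 5605 and 5443 for tops against bottoms, from 4798 and 6707. Of the 90 named genes called, 58 kept the call in all alternatives and 32 lost it in at least 1, and 0 of 108 named genes reversed. List medians changed sign under scaling for ethylene, from -0.01 to 0.08 with median-of-ratios scaling and 0.02 with quantile normalisation. With 1 library left out they changed sign for sulphate (from -0.48 to 0.01 without grafted top replicate 2 of 48 h), anthocyanin (from 0.19 to -0.17 without separated top replicate 2 of 72 h), and for 6 lists within 0.07 of 0: sugar starvation (down to -0.18), abscisic acid, auxin transport, cell wall, hypoxia, and gibberellin and brassinosteroid. Deviations of same-numbered grafted and separated tops correlated at 0.24 at 48 h and 0.49 at 72 h, and at -0.01 to 0.49 over all 8 times. The labels name no shared batch behind a number, so the pairing is a hint from the data and the block an alternative. With the replicate block the mean had 5511 calls, the change between times 173 higher and 456 lower, and 4 jasmonate, 2 clock and 1 salicylic acid gene were called higher. Depth limits weakly expressed genes, as a value of 1 stands for 9.29 reads or more in the 7 libraries with an estimate.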
